A study of Ovis aries with 36 samples.

Results

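The 5 sheep genes described here, ENSOARG00000001626, ENSOARG00000006083, ENSOARG00000007230, ENSOARG00000007929 and ENSOARG00000019246, were measured in the infraspinatus muscle among 25197 genes in all. They were chosen by their change in expression after release of the infraspinatus tendon: from the biopsy before release to the biopsy at repair, that change differed between animals given nandrolone and untreated animals. Of the 16417 genes that passed the filter on low values (a median of at least 0.5 over all libraries), 9 (0.0548%) passed the threshold of this contrast. In 4 of them (0.0244%) the change was higher with nandrolone than without, and in 5 (0.0305%) it was lower. These 5 genes are among the 9, and all 5 passed the filter on low values. Since this contrast selected them, its values are given below as a description, without a test.

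All 9 animals were female Swiss Alpine sheep aged 2 years whose infraspinatus tendon was released on 1 side and repaired after 16 weeks. CONTROL animals (2901, 2902 and 2903) received no drug. N22W animals (2913, 2914 and 2915) received 150 mg of nandrolone decanoate every week from release onward, for 22 weeks. N6W animals (2907, 2908 and 2909) received the same weekly dose for the 6 weeks from repair onward, so they were untreated up to repair. Each animal gave a biopsy of the operated muscle before release (PRE), at repair (TR) and 6 weeks after repair (END), and, together with the last one, a biopsy of the unoperated infraspinatus (END-CC). The drug was given to the animal as a whole, so in the treated arms both sides were exposed to it at the end.

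The infraspinatus is a muscle of the rotator cuff, which moves and steadies the shoulder. Once its tendon is cut, the muscle loses tension and retracts, its fibres waste, and fat and connective tissue build up between them. Nandrolone is an anabolic steroid that activates the androgen receptor, a transcription factor present in muscle fibres and in other cells of muscle, and the decanoate ester releases it slowly. The files give Ensembl identifiers without gene names, and 0 of the 25197 identifiers matched the RefSeq name table used here. The 5 genes are therefore described by identifier and expression only, with no statement on their function, position or sequence, and the biopsies were not checked against marker genes of muscle or of other cell types.

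Expression is given as the deposited signal, which is the number of reads of a gene divided by a single scaling factor per library. Reads recovered from the signal summed to 11879736 to 43065773 per library, the lowest in N6W animal 2909 before release. Signals are not divided by gene length, so levels are compared between samples and never between genes. The 12 libraries taken at PRE or TR in CONTROL or N22W stand apart from the other 24: 246 genes were over 8-fold higher in every library of the first set than in any of the second, and 0 the other way. None of the 5 genes is among the 246. The sets also appear to have been scaled apart. A factor of 0.996 went with 36162390 reads in CONTROL animal 2902 at PRE. In CONTROL animal 2903 at END-CC, a factor of 0.990 went with 20721029 reads. Levels in the first set should therefore not be set directly against those in the second. Each change from PRE to TR lies within 1 set, and so does every comparison at END and END-CC. In these bulk biopsies, fewer cells of a type and less RNA per cell cannot be told apart.

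The 5 genes fall into a pair with low signals and 3 genes with high signals. ENSOARG00000007230 and ENSOARG00000019246 were near 0 before release and, at repair, in the animals not yet or never given the drug. At repair they were well above 0 in the animals given nandrolone. ENSOARG00000001626, ENSOARG00000006083 and ENSOARG00000007929 were lower at repair than before release in every N22W animal. In the 6 untreated animals the latter 3 genes were higher at repair than before release, except ENSOARG00000001626 in animal 2901. The values at PRE and TR are those that chose the genes.

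**Figure D1:**
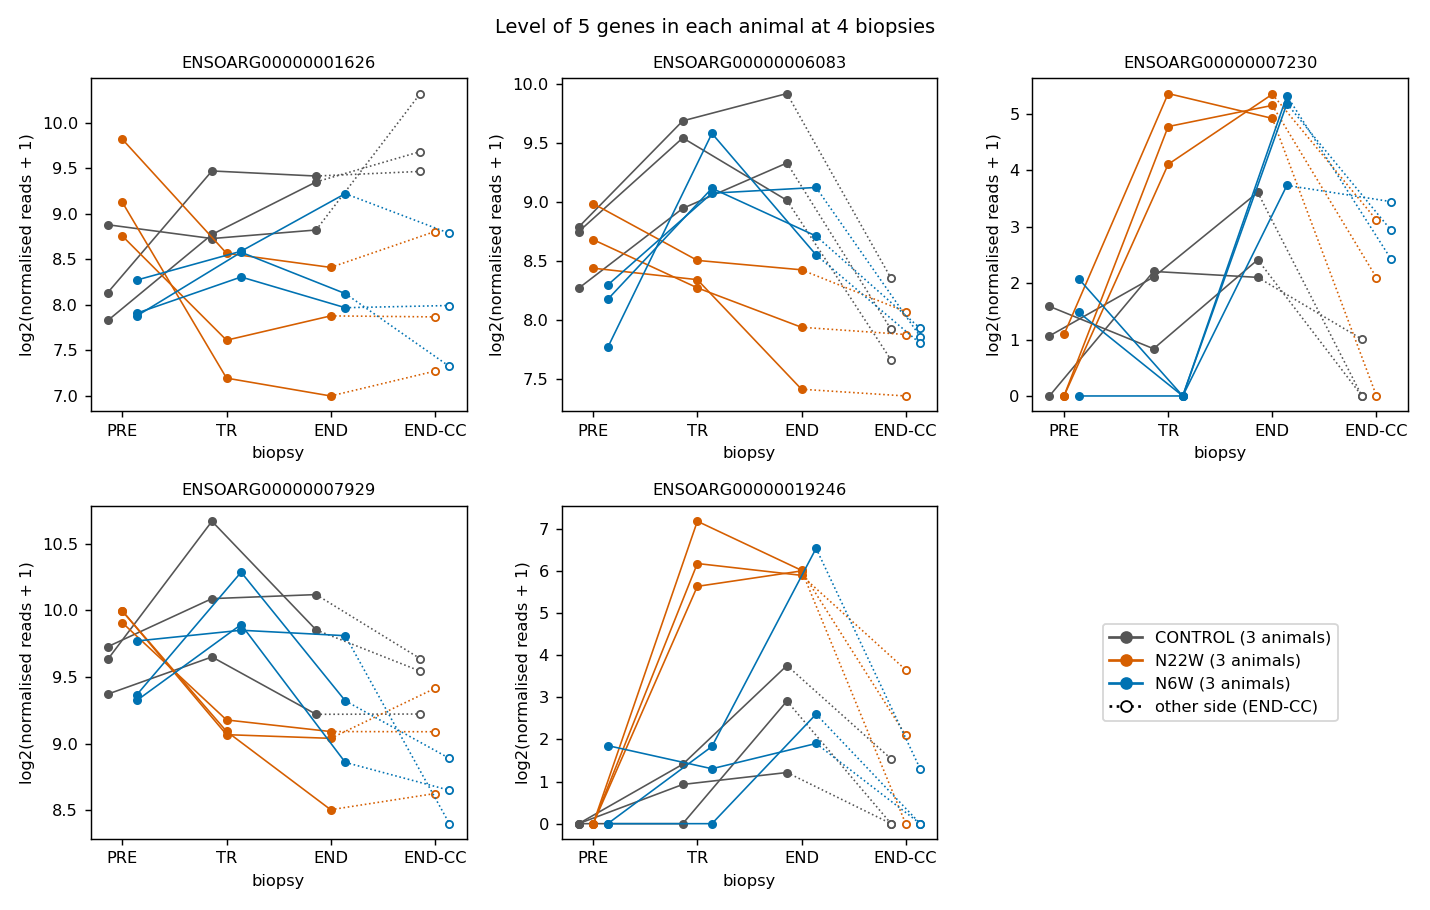
Signal of each of the 5 genes by animal at PRE, TR, END and END-CC, with lines joining the biopsies of an animal and colours for the arms CONTROL, N22W and N6W. At TR, ENSOARG00000019246 lies between 48.48 and 143.3 in the N22W animals and at most at 1.657 in CONTROL.

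Before release, ENSOARG00000019246 was at 0 in all 3 CONTROL animals and in all 3 N22W animals, and at 0, 2.609 and 0 in N6W animals 2907, 2908 and 2909. At repair the N22W animals stood at 71.03, 48.48 and 143.3 (animals 2913, 2914 and 2915; 87.6 ± 49.5, SD, n = 3). The 6 untreated animals stood at 1.657, 0 and 0.9058 in CONTROL and at 0, 1.467 and 2.558 in N6W. All N22W animals were thus above all CONTROL animals, whose libraries are of the same set, as was the case for 5.33% of the genes tested. The N6W libraries, of the other set, held no more than 7 reads of the gene in all at repair. In reads, the gene had 269 in the 3 N22W libraries at repair and 0 in the 3 before release, which is at least 72.6-fold higher with a floor of 3 reads over the 3 libraries. On the scale of log2(signal + 1), the change from PRE to TR was 6.32 ± 0.78 in N22W, 0.78 ± 0.72 in CONTROL and 0.43 ± 1.25 in N6W (mean ± SD, n = 3 each). The difference between N22W and the mean of the untreated arms was 5.72 (SE 1.00).

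At the end, ENSOARG00000019246 in the operated muscle was at 58.29, 62.77 and 63.39 in the N22W animals, which were close together (61.5 ± 2.78). In CONTROL it was at 12.46, 6.508 and 1.319. In N6W, which had by then received the drug for 6 weeks, it was at 5.051 in animal 2907, 2.737 in animal 2908 and 91.43 in animal 2909. A single N6W animal was therefore above all N22W animals, and the other two lay within the range of CONTROL. On the unoperated side the gene was at 11.55, 3.282 and 0 in N22W, at 1.903, 0 and 0 in CONTROL and at 0, 0 and 1.459 in N6W. Only N22W animals 2913 and 2914 exceeded 2 there. Over the whole set, 15 of the 36 libraries had no read of this gene, and its highest count was 138 reads.

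ENSOARG00000007230 followed a similar course before repair and a different one after it. Before release it was at 1.092, 2.009 and 0 in CONTROL, at 0, 0 and 1.130 in N22W and at 1.798, 0 and 3.231 in N6W. At repair it was at 16.25, 26.44 and 40.17 in the N22W animals (27.6 ± 12), at 3.313, 0.7868 and 3.623 in CONTROL and at 0 in all 3 N6W animals. The N22W animals again lay above all CONTROL animals, and the N6W libraries had no read. The N22W libraries held 81 reads of the gene at repair and 1 before release, a ratio of 65.6. This ratio rests on 1 read before release and on values that chose the gene. The change from PRE to TR was 4.39 ± 0.35 in N22W, 0.83 ± 1.49 in CONTROL and −1.19 ± 1.07 in N6W on the log2(signal + 1) scale. N22W differed from the mean of the untreated arms by 4.56 (SE 0.82).

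At the end, ENSOARG00000007230 in the operated muscle was at 39.83, 34.59 and 29.34 in N22W (34.6 ± 5.25). It was at 35.36, 12.31 and 39.09 in N6W (28.9 ± 14.5) and at 11.21, 4.339 and 3.297 in CONTROL (6.28 ± 4.30). All 3 N6W animals, at 0 when the drug was started, were above all 3 CONTROL animals after 6 weeks of drug, which held for 5.49% of the genes tested. All 3 N22W animals were above CONTROL too, for this gene and for ENSOARG00000019246, as for 6.55% of genes. From TR to END the N6W libraries went from 0 to 110 reads, at least 44.5-fold higher with the floor of 3 reads over the 3 libraries. The value of 0 at TR in N6W is among those that chose the gene, so the choice may have raised this fold. TR and END of N22W and of CONTROL belong to different sets and were not compared. On the unoperated side the gene was at 7.701, 3.282 and 0 in N22W, at 6.668, 9.904 and 4.377 in N6W and at 0, 0 and 1.010 in CONTROL. All 3 N6W animals were above CONTROL there, as for 5.98% of genes, and so were the N22W animals except 2915, which had no read. The gene had no read in 10 of the 36 libraries and at most 59 reads in any.

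**Figure D2:**
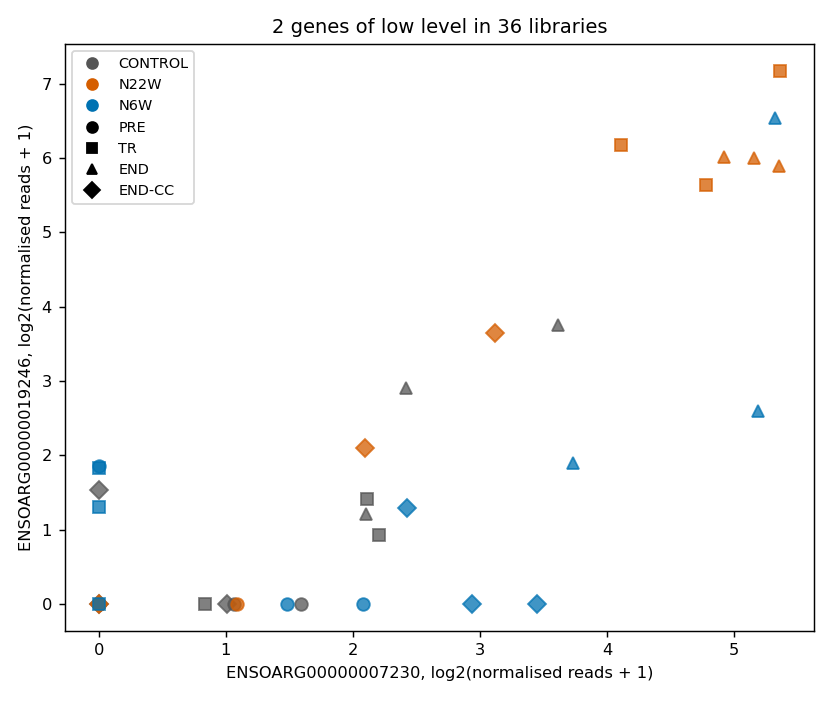
Signal of the low-level pair ENSOARG00000007230 and ENSOARG00000019246 in each library, by arm and time point, 1 point per animal. At END all 3 N6W animals are above CONTROL for ENSOARG00000007230, whereas for ENSOARG00000019246 a single N6W animal (2909, at 91.43) is.

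Among the 3 genes with high signals, ENSOARG00000001626 had a higher mean in N22W than in CONTROL before release, with overlapping ranges. It was then at 469.5, 226.0 and 279.8 in CONTROL, at 430.7, 556.9 and 900.7 in N22W and at 239.1, 307.9 and 234.2 in N6W. The N22W mean was thus the higher one before any drug was given (629 ± 243, against 325 ± 128 in CONTROL). Of the 3 N22W animals, 2 were above all CONTROL animals. This difference before release was not tested. At repair the N22W animals stood at 194.4, 145.4 and 377.6, between 0.261 and 0.451 times their own value before release. The CONTROL animals stood at 422.5, 435.9 and 707.5, and the N6W animals at 315.1, 383.6 and 380.6. All 3 N22W animals were below CONTROL at that time, as they were for 4.15% of the genes tested. The change from PRE to TR was −1.44 ± 0.43 in N22W, 0.71 ± 0.77 in CONTROL and 0.47 ± 0.20 in N6W, and the difference between N22W and the untreated arms was −2.03 (SE 0.35).

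At the end, ENSOARG00000001626 in the operated muscle was at 234.1, 126.8 and 339.0 in N22W, at 249.2, 595.2 and 277.6 in N6W and at 451.1, 650.8 and 680.6 in CONTROL. N6W animal 2908 lay within the CONTROL range and the other 5 treated animals below it. The 3 N22W animals were below CONTROL for ENSOARG00000001626, ENSOARG00000006083 and ENSOARG00000007929, as they were for 6.26% of the genes tested. On the unoperated side the gene was at 232.3, 153.4 and 445.8 in N22W, at 253.4, 439.5 and 159.0 in N6W and at 1276, 820.0 and 705.0 in CONTROL. There all 6 treated animals were below all 3 CONTROL animals. The N22W animals were below CONTROL for 7.22% of the genes tested and the N6W animals for 6.27%. Both treated arms had similar means (277 ± 151 in N22W and 284 ± 143 in N6W, against 934 ± 302 in CONTROL).

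ENSOARG00000006083 had arm means at the end that were further apart in the operated muscle than on the unoperated side. This gene did not pass the test of that difference, given below. Before release it was at 306.8, 439.9 and 428.3 in CONTROL, at 408.6, 345.4 and 505.1 in N22W and at 312.9, 216.5 and 287.5 in N6W, so CONTROL and N22W overlapped. At repair it was at 491.2, 822.2 and 743.7 in CONTROL and at 537.1, 763.6 and 552.9 in N6W, between 1.60 and 3.53 times the value before release of the same animal. In N22W it was at 307.6, 322.8 and 361.6, or 0.716 to 0.935 times the value before release. The change from PRE to TR was 0.79 ± 0.11 in CONTROL, 1.18 ± 0.56 in N6W and −0.33 ± 0.20 in N22W, and N22W differed from the untreated arms by −1.31 (SE 0.23). The value at repair was thus higher in 6 of 6 untreated animals and lower in 3 of 3 N22W animals. These are the values that chose the gene, and the share of all genes with such a split was not counted.

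At the end, ENSOARG00000006083 in the operated muscle was at 641.7, 965.4 and 515.1 in CONTROL (707 ± 232), at 555.6, 373.5 and 417.4 in N6W (449 ± 95) and at 243.8, 169.1 and 342.1 in N22W (252 ± 86.8). The N22W animals were all below the N6W animals, as for 4.49% of genes, and N6W overlapped with CONTROL through animal 2907. On the unoperated side it was at 240.7, 325.3 and 201.0 in CONTROL, at 230.7, 221.6 and 242.2 in N6W and at 233.6, 162.5 and 267.3 in N22W. The arms overlapped there, and their means lay between 221 and 256.

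ENSOARG00000007929 varied little between the N22W animals at PRE and TR. Before release it was at 1019, 958.7 and 1019 in N22W, at 661.6, 846.7 and 792.8 in CONTROL and at 659.9, 640.5 and 872.2 in N6W. All 3 N22W animals were thus above the 3 CONTROL animals before any drug was given, as were those of 5.98% of the genes tested. At repair it was at 535.8, 578.4 and 545.0 in N22W, at 802.7, 1087 and 1625 in CONTROL and at 1247, 949.9 and 922.2 in N6W. All 3 N22W animals were then below the 3 CONTROL animals, as for 4.15% of the genes tested. The N22W animals kept 0.526 to 0.603 times their value before release, while the untreated animals stood at 1.06 to 2.05 times theirs. The change from PRE to TR was −0.85 ± 0.11 in N22W, 0.56 ± 0.41 in CONTROL and 0.52 ± 0.42 in N6W, and N22W differed from the untreated arms by −1.39 (SE 0.24). That contrast contains the higher starting level of N22W, as it does for ENSOARG00000001626, and how much of it the starting level makes up was not tested.

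At the end, ENSOARG00000007929 in the operated muscle was at 525.6, 544.5 and 362.5 in N22W, at 639.0, 463.8 and 896.4 in N6W and at 595.6, 1110 and 923.9 in CONTROL. All N22W animals were below CONTROL, and N6W overlapped with both. On the unoperated side it was at 681.5, 544.0 and 394.3 in N22W, at 473.5, 401.1 and 337.1 in N6W and at 596.5, 795.5 and 745.4 in CONTROL. The 3 N6W animals were below CONTROL there, as for 6.27% of the genes tested, and N22W animal 2913 lay within the CONTROL range.

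**Figure D3:**
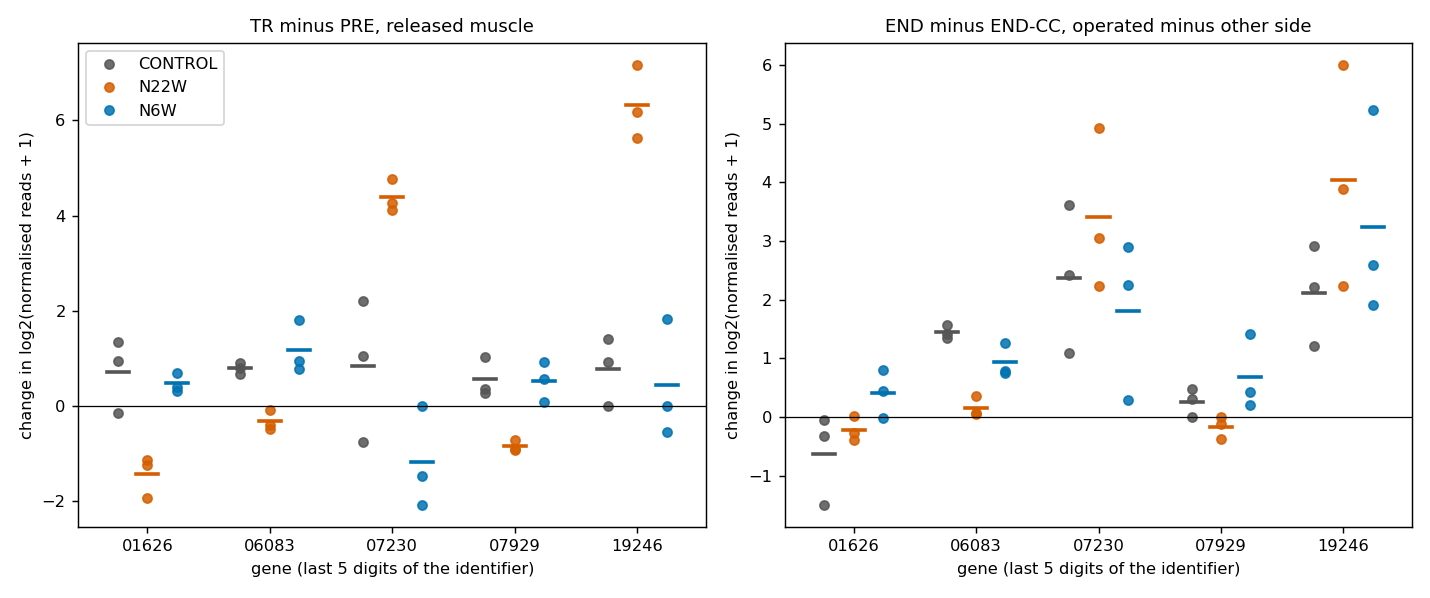
Change from PRE to TR of each gene on the log2(signal + 1) scale, 1 point per animal, with a bar at the mean of each arm (n = 3). Another panel shows END minus END-CC in the same way. From PRE to TR, the N22W animals lie below 0 for ENSOARG00000001626, ENSOARG00000006083 and ENSOARG00000007929 and above 0 for ENSOARG00000007230 and ENSOARG00000019246.

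The contrast can be taken against either untreated arm, which use the same N22W libraries. Against CONTROL alone, the differences in the order of the identifiers were −2.15, −1.12, 3.55, −1.41 and 5.54. Against N6W alone they were −1.91, −1.51, 5.57, −1.37 and 5.90. The direction was the same with either arm for all 5 genes, which their selection on the mean of both arms made likely in advance. Over all genes tested, limma called 0 against CONTROL alone and 3 (0.0183%) against N6W alone. At the threshold of the contrast, ENSOARG00000008705 lay just inside (log2 difference 1.71, SE 0.33, limma adjusted p = 0.0432) and ENSOARG00000019513 just outside (−1.35, SE 0.26, limma adjusted p = 0.0522). Membership of the 5 depended on single animals: no gene of the 5 stayed past the threshold without N22W animal 2913, 2914 or 2915 or without CONTROL animal 2902. With edgeR on recovered reads, or with a pseudocount of 0.5, the low-level pair did not pass. The differences of all 5 genes kept their sign in each of these settings, which reuse the values that selected them.

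Signals at END and END-CC are not part of the contrast that chose the genes, and comparisons of them were tested. These libraries did enter the fit that gave the contrast its error: with the PRE and TR libraries alone, 0 of the 5 genes passed (limma adjusted p = 0.0763 to 0.165). Comparisons between arms at either time used limma on log2(signal + 1) with N22W and N6W averaged against CONTROL, n = 6 against 3 animals. On the unoperated side, ENSOARG00000001626 differed by −1.82 on the log2 scale, treated minus CONTROL (SE 0.36, 95% interval −2.61 to −1.02), which missed the threshold over all genes (limma adjusted p = 0.326). All 6 treated animals were below all 3 CONTROL animals, as was the case for 1.78% of the genes tested. ENSOARG00000007230 was 2.003 higher (SE 0.63, adjusted p = 0.523) and ENSOARG00000007929 differed by −0.62 (SE 0.17, adjusted p = 0.446). ENSOARG00000006083 (−0.16, SE 0.18, 95% interval −0.56 to 0.24, adjusted p = 0.879) and ENSOARG00000019246 (0.66, SE 0.75, 95% interval −0.98 to 2.303, adjusted p = 0.88) had differences within their error. Of the 5 genes, 0 passed, as did 0 of 16417 genes (0%), with 7.78% of genes at an unadjusted p under 0.05. The median difference was −0.16 over the 5 genes and 0.00 over all genes tested. With recovered reads, edgeR called 0 genes and DESeq2 45, among them ENSOARG00000001626 (log2 difference −1.73, adjusted p = 0.0494).

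In the operated muscle at the end, ENSOARG00000007230 was 2.24 higher in treated animals (SE 0.44, 95% interval 1.26 to 3.21, limma adjusted p = 0.337). The 6 treated animals were all above the 3 CONTROL animals, as were those of 1.61% of the genes tested. ENSOARG00000006083 differed by −1.06 (SE 0.25, 95% interval −1.62 to −0.50, adjusted p = 0.395) and ENSOARG00000001626 by −1.10 (SE 0.34, adjusted p = 0.614). ENSOARG00000007929 differed by −0.63 (SE 0.25, adjusted p = 0.733) and ENSOARG00000019246 by 2.20 (SE 0.91, adjusted p = 0.763). Of the 5 genes 0 passed, and so did 0% of all genes, with 6.41% at an unadjusted p under 0.05. The median difference was −0.63 over the 5 genes and −0.01 over all genes tested. DESeq2 called 72 genes, among them ENSOARG00000007230 (2.44, adjusted p = 0.00316) and ENSOARG00000006083 (−1.07, adjusted p = 0.0252), and edgeR called 0. With the spread taken from all 36 libraries, limma called ENSOARG00000006083 (adjusted p = 0.039). The comparisons on either side share the animals but not the libraries.

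**Figure D4:**
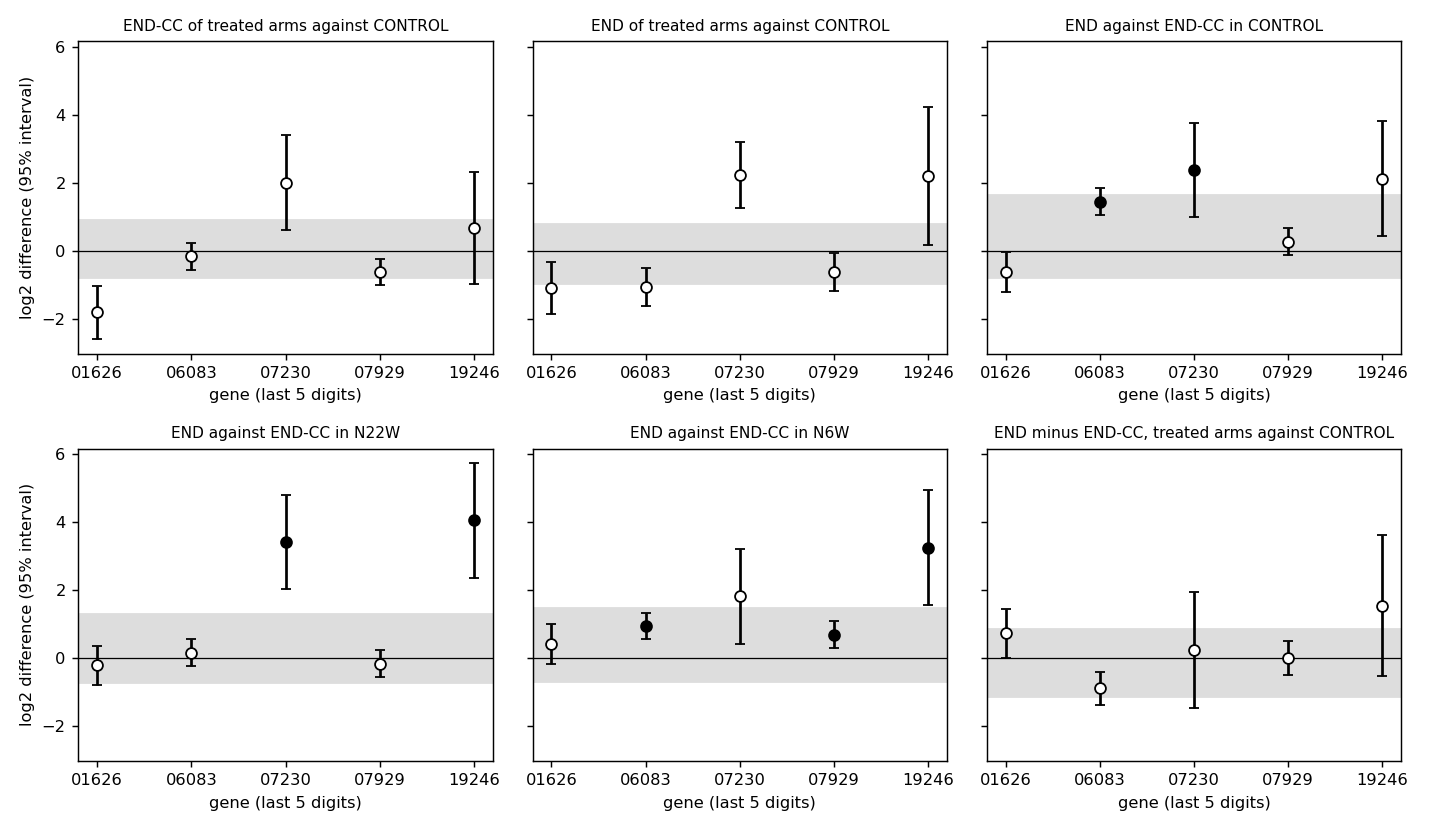
Log2 differences of the 5 genes with 95% intervals from limma for the comparisons at END and END-CC. Filled points passed an adjusted p of 0.05; all 3 arms have such points for END against END-CC, and the comparisons of treated arms with CONTROL have none.

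The operated muscle was then compared with the unoperated side of the same animals, with the animal as a block in a limma fit on all 36 libraries. This asks how far the muscle differed from its counterpart after release and repair in each arm. The same fit gave the error of the contrast that chose the genes. A gene chosen in part for a small error carries that error into these p-values. The same holds for the later test of the difference between sides. In CONTROL, 3184 genes (19.4%) differed between sides, 9.53% of those tested being higher in the operated muscle. Among the 5 genes, 2 rose: ENSOARG00000006083 was 1.44 higher (SE 0.19, adjusted p = 0.000273; 3 of 3 animals) and ENSOARG00000007230 was 2.37 higher (SE 0.67, adjusted p = 0.017; 3 of 3 animals). In reads, ENSOARG00000007230 had 18 against 1, a ratio of 15.9 (95% interval 2.505 to 661, exact for read counts). The interval covers counting error only and not the spread between animals. The call of ENSOARG00000007230 was lost without animal 2901 (adjusted p = 0.208) or 2902 (adjusted p = 0.0751). ENSOARG00000019246 (2.11, SE 0.82, adjusted p = 0.069), ENSOARG00000001626 (−0.63, SE 0.28, adjusted p = 0.117) and ENSOARG00000007929 (0.26, SE 0.20, adjusted p = 0.358) did not pass. The median over the 5 genes was 1.44, against 0.06 over all genes tested.

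In N22W, 1.6% of genes differed between sides and 0.822% were higher in the operated muscle. The low-level pair rose: ENSOARG00000007230 by 3.40 (SE 0.67, adjusted p = 0.0199) and ENSOARG00000019246 by 4.05 (SE 0.82, adjusted p = 0.0228), each in 3 of 3 animals. They had 124 against 10 reads and 230 against 13 reads, ratios of 10.4 and 14.9. Both calls were lost without animal 2914 (adjusted p = 0.186 and 0.194) or 2915 (0.137 and 0.177), and that of ENSOARG00000019246 with DESeq2 (adjusted p = 0.054). The 3 genes with high signals had similar values on either side, with differences of −0.22 for ENSOARG00000001626 (95% interval −0.80 to 0.36), 0.16 for ENSOARG00000006083 (−0.23 to 0.54) and −0.16 for ENSOARG00000007929 (−0.57 to 0.24). Their adjusted p-values were 0.708, 0.681 and 0.68. The median over the 5 genes was 0.16, against 0.05 over all genes tested.

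In N6W, 4.12% of genes differed and 2.55% were higher in the operated muscle (418 higher and 259 lower, against 593 and 642 with DESeq2). Here 3 of the 5 rose: ENSOARG00000006083 by 0.93 (SE 0.19, adjusted p = 0.0135), ENSOARG00000019246 by 3.24 (SE 0.82, adjusted p = 0.0311) and ENSOARG00000007929 by 0.68 (SE 0.20, adjusted p = 0.0482), each in 3 of 3 animals. Without the animal as a block, none of these passed (adjusted p = 0.0801, 0.0808 and 0.159). ENSOARG00000006083 and ENSOARG00000019246 lost their calls without animal 2907 (adjusted p = 0.065 and 0.0699) or 2909 (0.248 and 0.448). ENSOARG00000019246 also lost its call without animal 2902 (adjusted p = 0.0531) or 2914 (0.0504) of the other arms. For ENSOARG00000019246 the difference was 2.25 without animal 2909, which held the one high value of the arm. ENSOARG00000007929 kept its call only without animal 2908 of the 9 animals left out in turn, had a difference of 0.32 without animal 2909, and with edgeR had an adjusted p of 0.0554. ENSOARG00000007230 (1.81, SE 0.67, adjusted p = 0.105) and ENSOARG00000001626 (0.40, SE 0.28, adjusted p = 0.387) did not pass. The median over the 5 genes was 0.93, against 0.03 over all genes tested.

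Whether the difference between sides itself depended on the drug was tested as a difference of differences, treated arms against CONTROL. Of the 5 genes 0 passed, as did 0% of all genes, with 4.59% at an unadjusted p under 0.05, and both edgeR and DESeq2 called 0. ENSOARG00000006083 came nearest: its ratio of operated to unoperated side was 2.67, 2.97 and 2.56 in CONTROL, 2.41, 1.69 and 1.72 in N6W, and 1.04, 1.04 and 1.28 in N22W. The arms did not overlap and stood in the order CONTROL, N6W, N22W, which 13 of the genes tested (0.0792%) did. This order was not set in advance, so the share for any order is the one to set beside it. On the log2(signal + 1) scale, 0.347% of the genes tested had arms without overlap in any order. The treated arms differed from CONTROL by −0.90 on the log2 scale (SE 0.23, 95% interval −1.37 to −0.42, limma adjusted p = 0.852). N22W alone differed by −1.29 (SE 0.27, adjusted p = 0.342) and N6W alone by −0.51 (SE 0.27, adjusted p = 1), both comparisons added after the data had been examined, in which limma called 0% of genes.

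For the other 4 genes the difference of differences was 0.72 for ENSOARG00000001626 (SE 0.35, limma adjusted p = 0.985) and 1.53 for ENSOARG00000019246 (SE 1.00, adjusted p = 0.985). It was −0.00 for ENSOARG00000007929 (SE 0.24, 95% interval −0.50 to 0.49, adjusted p = 0.999) and 0.23 for ENSOARG00000007230 (SE 0.82, 95% interval −1.47 to 1.93, adjusted p = 0.99). The interval of ENSOARG00000007230 is wide, and the sign of its value turned with a pseudocount of 0.5 (−0.21), with edgeR (−1.10) and with DESeq2 (−1.28). So a call between sides in 1 arm and its absence in another is not shown to be a difference between the arms for any of the 5 genes.

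Groups were ordered by mean signal within each set. Among PRE and TR of CONTROL and N22W, N22W at TR was the lowest of the 4 groups for ENSOARG00000001626 (239 ± 122), ENSOARG00000006083 (331 ± 27.8) and ENSOARG00000007929 (553 ± 22.4). It was the highest for ENSOARG00000007230 (27.6 ± 12) and ENSOARG00000019246 (87.6 ± 49.5). Groups next to each other overlapped in 3 of 3 pairs for ENSOARG00000001626 and ENSOARG00000006083. They overlapped in 2 of 3 for the low-level pair, where N22W at TR stood above the rest, and in 1 of 3 for ENSOARG00000007929.

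Among the other 8 groups, ENSOARG00000001626 ran from 233 ± 106 (N22W at END) to 934 ± 302 (CONTROL at END-CC), and ENSOARG00000006083 from 221 ± 53.5 (N22W at END-CC) to 707 ± 232 (CONTROL at END). ENSOARG00000007929 ran from 404 ± 68.2 (N6W at END-CC) to 1040 ± 180 (N6W at TR). ENSOARG00000007230 ran from 0 (N6W at TR) to 34.6 ± 5.25 (N22W at END), and ENSOARG00000019246 from 0.49 ± 0.84 (N6W at END-CC) to 61.5 ± 2.78 (N22W at END). Neighbours in these orders overlapped in 7 of 7 pairs for ENSOARG00000007929 and ENSOARG00000019246 and in 6 of 7 for the other 3 genes. The exceptions were CONTROL at END-CC above the next lower group for ENSOARG00000001626, and N6W at END above the next one for ENSOARG00000006083 and for ENSOARG00000007230.

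Over the 36 libraries, with the mean of each set subtracted on the log2(signal + 1) scale, the 5 genes were related to each other to different degrees. The following Pearson correlations are descriptions, since libraries share animals and the genes share the pattern that selected them. ENSOARG00000007230 and ENSOARG00000019246 had r = 0.80, ENSOARG00000006083 and ENSOARG00000007929 r = 0.62, and ENSOARG00000001626 had r = 0.37 with ENSOARG00000007929 and 0.36 with ENSOARG00000006083. Each pair made of a low-level and a high-level gene had a negative r, from −0.44 for ENSOARG00000001626 with ENSOARG00000007230 to −0.10 for ENSOARG00000006083 with ENSOARG00000019246.

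Among all genes tested, those with the pattern most like each of the 5 were found by the same measure. For ENSOARG00000019246 they were ENSOARG00000017865 (r = 0.894), ENSOARG00000007959 (0.888) and ENSOARG00000013402 (0.876). The last 2 were also, beside ENSOARG00000019246 itself, the nearest to ENSOARG00000007230 (0.832 and 0.761). ENSOARG00000017865 was at 3.33 ± 0.99 before release and 84.5 ± 40.8 at repair in N22W, against 1.88 ± 0.77 and 5.97 ± 2.69 in CONTROL. At END in N6W it was at 10.10, 2.737 and 150.4 in animals 2907, 2908 and 2909, and ENSOARG00000007959 was at 74.92, 28.73 and 197.4. In both genes the highest N6W value was that of animal 2909, the animal in which ENSOARG00000019246 was high. The like genes named here and below were picked for their likeness over these same libraries, so shared values follow in part from that choice.

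For ENSOARG00000006083 the nearest genes were ENSOARG00000012184 (r = 0.895), ENSOARG00000019281 (0.820) and ENSOARG00000020962 (0.816). ENSOARG00000012184 was at 183 ± 11.3 before release and 363 ± 92.8 at repair in CONTROL, against 165 ± 27.9 and 172 ± 52.5 in N22W. At the end it was at 358 ± 76.2 in the operated muscle and 106 ± 3.92 on the unoperated side of CONTROL. In N22W the same values were 115 ± 7.66 and 76.8 ± 19.9. For ENSOARG00000007929 the nearest were ENSOARG00000003424 (0.785), ENSOARG00000002053 (0.740) and ENSOARG00000018663 (0.738), the first of which is itself among the 9 genes past the threshold of the contrast. For ENSOARG00000001626, ENSOARG00000005423 (0.753), ENSOARG00000018548 (0.751) and ENSOARG00000018344 (0.730) were nearest.

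The other 4 of the 9 genes also held both directions. The change from PRE to TR in N22W was −1.32 ± 0.79 for ENSOARG00000003424, −1.49 ± 0.85 for ENSOARG00000007090, 1.66 ± 0.28 for ENSOARG00000008705 and 1.68 ± 0.59 for ENSOARG00000009832. All of these were smaller in size than the changes of ENSOARG00000007230 and ENSOARG00000019246 in that arm. They were larger in size than those of ENSOARG00000006083 (−0.33) and ENSOARG00000007929 (−0.85), and that of ENSOARG00000001626 (−1.44) lay within their range. These differences in size were not tested.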

How the data were processed

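Total RNA of the infraspinatus was sequenced in 36 libraries, 12 groups of 3 animals. Other animals in the design text were not analysed here. The labels' protocols describe stranded libraries, depleted of ribosomal RNA with probes for human RNA. STAR 2.3.0e, R 3.0.2 and the assembly Oar_v3.1 were used, per the submitters' processing notes. The sources used here do not say how reads were assigned to genes or how the scaling factors were derived. Per gene, the deposited signal was read as whole reads divided by 1 factor per library: 100% of values up to 100 reads came out within 0.1 of a whole number. On these reads edgeR 4.0.16, run as an alternative, called 9 genes in the contrast that chose the members, and DESeq2 1.42.0 called 36.

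Because the files hold scaled values, limma 3.58.1 (R 4.3.3) with a mean-dependent prior was fitted to log2(signal + 1) of the 16417 genes whose median over the libraries reached 0.5. Comparisons within animals used all 36 libraries, with a block for the animal. Treated and CONTROL animals at END or END-CC were compared over the 9 libraries of that time. Benjamini-Hochberg adjustment of two-sided p-values ran over all 16417 genes, with a threshold of 0.05. Changes from PRE to TR are described only.

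The animal numbers in the titles pair the libraries, since the same animals gave repeated biopsies. Deviations from group means had a mean r of 0.24 between libraries of an animal and −0.12 between animals of an arm. Libraries of a group differed by far more than sampling noise (chi-square per gene of 15.2 to 155.8). The fit was tested on simulated data.

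The named genes are the 5 members, the 4 other genes past the same threshold, the genes next to the threshold and, for each member, the 3 genes with the highest Pearson r over the libraries after subtraction of set means. Members, comparisons and this rule were chosen with earlier results of these data known. Alternatives were the pseudocount, no filter, TMM scaling, no block, only the libraries compared, edgeR, DESeq2 and leaving out each animal. Marker and pathway lists were not used, since no identifier matched a name.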

Additional observations from a re-analysis of the deposited data

Results flagged for a closer look

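In the operated muscle at the end, ENSOARG00000007230 had 1 treated library apart from the other 5: N6W animal 2908 at 12.31, where the rest lay between 29.34 and 39.83. On the log2(signal + 1) scale its gap to the nearest of the others was 0.735 of the range of the 6 libraries, above the critical value of Dixon's test at the 5% level. Chance gives such a gap in about 5% of groups, and 10 groups were examined. Without this animal, the difference between treated arms and CONTROL was 2.49 (limma adjusted p = 0.13), against 2.24 (adjusted p = 0.337) with it.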

How the results depend on the processing

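Of 630 alternative values for the 5 genes in the tested comparisons, 580 kept their direction and side of the threshold, 27 lost a call, 6 newly passed and 17 turned sign. In the contrast that chose the genes, 42 of 80 alternative values did not pass the threshold and all 80 kept their sign. That contrast called 5 genes with a pseudocount of 0.5, 17 without the filter, 1 with no replicate block, 0 with only the libraries compared, 36 with DESeq2, and 0 to 27 when an animal was left out. Treated against CONTROL at END-CC gave 2 genes without the filter, 6 with all 36 libraries, 45 with DESeq2 (1 of the 5) and 0 to 1 without an animal. At END it gave 7, 22 (1 of the 5), 72 (2 of the 5) and 0 to 1. END against END-CC in CONTROL gave 1596 genes with no replicate block and 752 to 3930 without an animal (1 to 3 of the 5). In N22W it gave 117 without the filter, 38 with no replicate block, 714 with DESeq2 (1 of the 5) and 0 to 896 without an animal (0 to 2 of the 5), with 0 without animal 2914 and 1 without 2915. In N6W it gave 413, 116 (0 of the 5), 1235 and 2 to 1213 (0 to 3 of the 5), with 2 without animal 2909. The difference of sides called 1 gene without the filter. Values that turned sign were ENSOARG00000006083 at END-CC (−0.32 to 0.0249 without an animal) and, for the difference of sides, ENSOARG00000007230 (−0.21 with a pseudocount of 0.5, −1.10 with edgeR, −1.28 with DESeq2, −0.41 to 0.85 without an animal) and ENSOARG00000007929 (−0.18 to 0.12). The same held in N22W alone for ENSOARG00000007230 (−0.40 with edgeR, −0.54 with DESeq2) and ENSOARG00000001626 (−0.0267 to 0.70), and in N6W alone for ENSOARG00000007230 (−1.20 to 0.20). No cause of these shifts was tested. Depth limits the low-level pair most, with at most 59 and 138 reads per library.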
